A study of Mus musculus with 6 samples.

Results

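The genes described here are 10 genes of protein folding in the endoplasmic reticulum (ER) and of the unfolded protein response: Hspa5, Hsp90b1, Calr, Pdia3, Pdia4, Pdia6, Sdf2l1, Creld2, Manf and Xbp1. They were taken by gene name from 51826 genes in the cortex of irradiated mice, and all 10 were found in both the table of counts and the table of FPKM. The list was chosen on measured values, namely the difference between Lgmn-/--IR and Lgmn+/+-IR mice in these same 6 libraries. Levels and fold changes of the 10 genes are therefore given as a description, without a p value, and counts of those called are no evidence of a difference.

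The study asked how asparagine endopeptidase (AEP), the lysosomal cysteine protease encoded by Lgmn, affects radiation-induced brain injury. Male BALB/c mice aged 6 to 8 weeks received a single dose of 10 Gy X-rays to the whole brain. PolyA RNA was sequenced on day 3 from 3 cortical samples of wildtype mice (Lgmn+/+-IR) and 3 of Lgmn knockout mice (Lgmn-/--IR). The methods do not say whether a sample was 1 animal or a pool. The knockout mice were Lgmn flox/flox: Cre+ and descended from 1 targeted ES cell clone. The methods describe purchased wildtype BALB/c mice and also littermates assigned to groups, and do not say which of these the sequenced Lgmn+/+-IR mice were. The methods name neither the promoter of Cre nor the ES cell strain. Both groups were irradiated, and unirradiated cortex was not analysed here, so each difference below is one of genotype after irradiation. Total counts were 41874462 to 45465136 in the Lgmn+/+-IR libraries and 44794460 to 46829441 in the Lgmn-/--IR libraries.

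Secreted and membrane proteins fold in the ER with the help of chaperones, which hold unfolded chains, and of protein disulfide isomerases, which join cysteines into disulfide bonds. When unfolded chains accumulate, the sensors IRE1, ATF6 and PERK start the unfolded protein response. IRE1 splices Xbp1 mRNA into the form that encodes an active transcription factor, ATF6 is cut to release a transcription factor, and PERK slows translation and favors the translation of ATF4. ATF6 and spliced XBP1 bind ER stress response elements in the promoters of chaperone genes. In the brain, oligodendrocytes are known to depend on this machinery, since they make large amounts of myelin membrane.

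The promoter of Hspa5, the gene of the chaperone BiP, is shown because it is the textbook target of this response and holds the element that recurs among the 10 genes. The window runs from 250 bases before to 50 bases after the start site in RefSeq (GRCm38.p6), at chr2:34771840-34772139 on the + strand, and capitals mark the 2 arms of the element.
Hspa5 promoter: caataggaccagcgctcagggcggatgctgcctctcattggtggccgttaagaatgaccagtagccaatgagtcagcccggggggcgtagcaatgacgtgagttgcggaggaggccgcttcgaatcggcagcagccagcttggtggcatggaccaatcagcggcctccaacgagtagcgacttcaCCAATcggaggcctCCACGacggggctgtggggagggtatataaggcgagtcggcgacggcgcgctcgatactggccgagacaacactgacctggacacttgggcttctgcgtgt
The ER stress response element (ERSE) was searched on both strands as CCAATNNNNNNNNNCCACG. Windows were found for 9 of the 10 genes, and 5 of the 9 held a match, against 39 of all 32851 windows (0.119%). The 10 genes were listed as targets of ATF6 or XBP1, so the presence of the element is not independent of the list. The matches are shown with 10 bases on either side, read 5′ to 3′ on the strand of the match, with CCAAT and CCACG in capitals.
Hspa5, chr2:34772015-34772053, + strand: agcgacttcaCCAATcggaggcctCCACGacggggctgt
Hsp90b1, chr10:86705628-86705666, - strand: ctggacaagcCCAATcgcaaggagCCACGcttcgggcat
Hsp90b1, chr10:86705523-86705561, + strand: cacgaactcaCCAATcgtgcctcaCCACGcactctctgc
Calr, chr8:84847065-84847103, + strand: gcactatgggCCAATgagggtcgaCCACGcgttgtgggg
Pdia6, chr12:17266481-17266519, + strand: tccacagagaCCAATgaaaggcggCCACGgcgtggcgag
Creld2, chr15:88819510-88819548, - strand: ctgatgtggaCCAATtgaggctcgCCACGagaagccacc
Relative to the start site, the centre of the match lay at −56 in Hspa5, at −203 and −98 in Hsp90b1, at −153 in Calr, at −89 in Pdia6 and at −117 in Creld2. The match of Calr, that of Creld2 and the nearer match of Hsp90b1 were on the strand opposite to the gene. The windows of Pdia3, Pdia4, Sdf2l1 and Xbp1 did not hold these letters, and no window of the 9 genes held ERSE-II (ATTGGNCCACG, in 0.0365% of all windows) or the unfolded protein response element (UPRE, TGACGTGG, in 0.676% of all windows). ERSE and ERSE-II end in the same 5 letters.

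Lgmn itself (chr12:102394084-102439813, GRCm38) had 130.2, 129.0 and 126.9 CPM (counts scaled to a common library size with TMM factors) in Lgmn+/+-IR replicates 1, 2 and 3, and 83.3, 70.4 and 93.6 CPM in Lgmn-/--IR replicates 1, 2 and 3. The groups did not overlap, and since the counts cover the whole gene they do not show which piece was deleted. Its log2 fold change was −0.64 ± 0.12 (standard error (SE), adjusted p = 0.0315, edgeR's quasi-likelihood F-test, 18345 genes). The call was lost without any 1 of the 3 Lgmn+/+-IR libraries or without Lgmn-/--IR replicate 1, with an adjusted p of at most 0.131. Of the 10 genes, Pdia6 alone shares chromosome 12 with Lgmn, at a distance of 85.1 Mb.

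The chaperones Hspa5, Hsp90b1 and Calr were higher in every Lgmn-/--IR library than in any Lgmn+/+-IR library. Hspa5 (chr2:34771970-34777547, + strand, GRCm38 as for all genes below) encodes BiP, the Hsp70 of the ER lumen and the protein that keeps the stress sensors inactive. It had 81.0, 102.0 and 110.0 CPM in Lgmn+/+-IR replicates 1, 2 and 3, and 156.7, 182.8 and 197.7 CPM in Lgmn-/--IR replicates 1, 2 and 3. The lowest knockout library was 1.60-fold above the Lgmn+/+-IR mean. The group means were 97.6 ± 15.0 and 179.1 ± 20.7 CPM (SD, n = 3 each), at a log2 fold change of 0.87 ± 0.14 (SE). Hspa5 had the widest relative spread of the 10 genes among Lgmn+/+-IR libraries, with a coefficient of variation of 15.4%.

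Hsp90b1 (chr10:86690209-86705509, − strand) encodes GRP94, the Hsp90 of the ER, which folds integrins and Toll-like receptors. It had 190.9, 211.2 and 186.8 CPM in Lgmn+/+-IR mice and 265.1, 269.4 and 337.8 CPM in Lgmn-/--IR mice, in the order of the replicates. Replicate 3 of the knockout stood above the other two, which lay close together. The means were 196.3 ± 13.1 and 290.8 ± 40.8 CPM, and the log2 fold change of 0.57 ± 0.12 (SE) was the smallest of the 10. The gene overlaps 1810014B01Rik on the other strand and Gm15344 and Gm25745 on its own, which had at most 558 counts in a library, against 8149 to 14833 for Hsp90b1.

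Calr (chr8:84841850-84846934, − strand) encodes calreticulin, a calcium-binding lectin chaperone of glycoproteins and a part of the class I peptide-loading complex. It had 324.2, 303.9 and 302.4 CPM in Lgmn+/+-IR mice and 483.0, 439.8 and 621.6 CPM in Lgmn-/--IR mice. The coefficient of variation was 3.92% among the wildtype libraries and 18.4% among the knockout libraries. The means were 310.2 ± 12.2 and 514.8 ± 95.0 CPM, a log2 fold change of 0.73 ± 0.14 (SE). In bulk tissue, a change in the number of cells that hold such a transcript and a change in its amount per cell cannot be told apart.

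Among the disulfide isomerases, Pdia4 had a larger fold change than Pdia3 and Pdia6, and all 3 were higher in every Lgmn-/--IR library. Pdia4 (chr6:47796141-47813430, − strand) encodes ERp72, an isomerase with several thioredoxin-like domains. It had 26.4, 30.1 and 27.5 CPM in Lgmn+/+-IR mice and 66.1, 70.3 and 87.0 CPM in Lgmn-/--IR mice. Every knockout library was at least 2.36-fold above the Lgmn+/+-IR mean. The means were 28.0 ± 1.89 and 74.4 ± 11.1 CPM, and the log2 fold change of 1.41 ± 0.13 (SE) was the largest of the 10. The microRNA gene Mir704 lies within it and had at most 2 counts in a library.

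Pdia3 (chr2:121413775-121438687, + strand) encodes ERp57, the isomerase that works with calreticulin and calnexin on glycoproteins and also belongs to the peptide-loading complex. It had 169.5, 176.3 and 180.8 CPM in Lgmn+/+-IR mice and 249.5, 239.7 and 311.9 CPM in Lgmn-/--IR mice, with means of 175.5 ± 5.67 and 267.0 ± 39.2. As in Calr, the partner protein, replicate 2 was the lowest and replicate 3 the highest of the knockout libraries. The log2 fold change was 0.61 ± 0.12 (SE).

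Pdia6 (chr12:17266545-17284770, + strand) encodes P5, an isomerase that binds BiP. It had 92.8, 91.3 and 93.1 CPM in Lgmn+/+-IR mice and 128.6, 143.7 and 154.1 CPM in Lgmn-/--IR mice. The coefficient of variation was 1.06% among the wildtype libraries, and each knockout library was at least 1.39-fold above their mean. The means were 92.4 ± 0.98 and 142.1 ± 12.8 CPM, a log2 fold change of 0.62 ± 0.09 (SE). Catsper2 overlaps Pdia3 and Atp6v1c2 overlaps Pdia6, both on the other strand. Their counts were at most 110 and 187 in a library, where the lowest count of Pdia3 was 7237 and that of Pdia6 was 3910.

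In the 3 cofactors Sdf2l1, Creld2 and Manf, replicate 2 was the highest of the knockout libraries. Sdf2l1 (chr16:17130138-17132383, − strand) encodes an ER-resident partner of the co-chaperone ERdj3. It had 10.5, 12.6 and 12.4 CPM in Lgmn+/+-IR mice and 20.7, 35.6 and 29.0 CPM in Lgmn-/--IR mice. Replicate 1 of the knockout was 1.75-fold and replicate 2 was 3.01-fold above the Lgmn+/+-IR mean. The means were 11.8 ± 1.13 and 28.5 ± 7.47 CPM, a log2 fold change of 1.26 ± 0.20 (SE), the largest standard error of the 10.

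Creld2 (chr15:88819646-88826683, + strand) encodes a secreted ER protein with EGF-like domains. It had 14.2, 14.2 and 14.0 CPM in Lgmn+/+-IR mice and 23.2, 26.4 and 25.3 CPM in Lgmn-/--IR mice. Its coefficients of variation, 0.569% in Lgmn+/+-IR and 6.68% in Lgmn-/--IR, were low for the list. The means were 14.1 ± 0.08 and 25.0 ± 1.67 CPM, a log2 fold change of 0.82 ± 0.10 (SE).

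Manf (chr9:106838312-106891979, − strand) encodes a neurotrophic factor that is retained in the ER and secreted when ER calcium falls. It had 36.6, 39.3 and 39.5 CPM in Lgmn+/+-IR mice and 68.5, 74.8 and 46.1 CPM in Lgmn-/--IR mice. Replicate 3 of the knockout was 1.20-fold above the Lgmn+/+-IR mean, and replicates 1 and 2 were 1.78-fold and 1.95-fold above it. The means were 38.5 ± 1.58 and 63.1 ± 15.1 CPM, a log2 fold change of 0.72 ± 0.18 (SE). In FPKM, which is scaled for transcript length and library size, Manf had 29.4, 26.6 and 32.6 in Lgmn+/+-IR mice and 40.5, 55.2 and 29.5 in Lgmn-/--IR mice. The FPKM of the genotypes therefore overlapped, which held for no other gene of the list. The annotated gene overlaps several others, among them Rbm15b on the same strand, which had 3032 to 4050 counts against 1564 to 3476 for Manf, so reads could have been shared between them.

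Xbp1 (chr11:5520659-5525893, + strand) encodes the transcription factor made active by IRE1. It had 69.8, 71.8 and 69.1 CPM in Lgmn+/+-IR mice and 118.8, 129.8 and 134.8 CPM in Lgmn-/--IR mice. The means were 70.2 ± 1.37 and 127.8 ± 8.19 CPM, a log2 fold change of 0.86 ± 0.09 (SE), the smallest standard error of the 10. The counts are of the whole gene and do not separate spliced from unspliced Xbp1 mRNA.

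**Figure D1:**
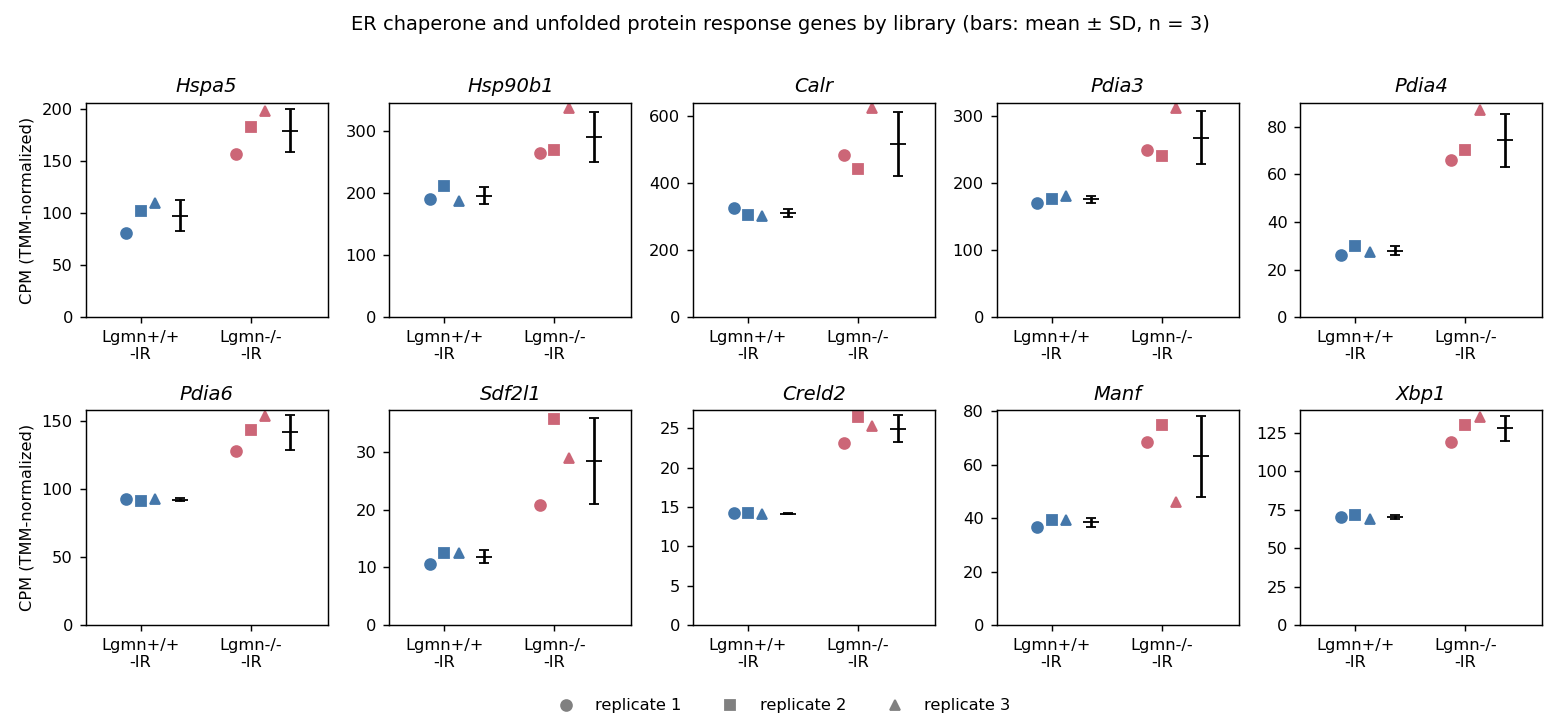
TMM-normalized CPM (vertical axes, each from 0) of the 10 genes in the 3 Lgmn+/+-IR libraries (blue) and the 3 Lgmn-/--IR libraries (red), with the marker shape for the replicate and black bars for mean ± SD. All red points lie above all blue points in each panel, and the red triangle of Manf (46.1 CPM) comes nearest to the blue points.

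Across the list, all 10 genes passed the filter on low counts, and their log2 fold changes ran from 0.57 to 1.41 with a median of 0.78, beside a median of −0.01 over all 18345 genes tested. In all 10 the genotypes did not overlap in CPM, with Lgmn-/--IR higher. This was so in 12.4% of all genes tested. By edgeR, 8 of the 10 genes had an adjusted p under 0.05 and were higher in Lgmn-/--IR mice, and Hsp90b1 and Manf did not, beside 1.65% of all genes tested. Pdia4 and Sdf2l1 also passed a log2 fold change of 1, beside 0.959% of all genes tested. Without Lgmn+/+-IR replicate 1, 2 or 3, 3 of the 10 genes were called each time, beside 308, 223 or 257 of all genes. Without Lgmn-/--IR replicate 1, 2 or 3 the number was 6, 7 or 6, beside 369, 500 or 304 of all genes. Because this contrast chose the list, nothing is read from any of these counts.

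The 10 genes summed to 1016, 1053 and 1036 CPM in Lgmn+/+-IR replicates 1, 2 and 3, and to 1580, 1612 and 1945 CPM in Lgmn-/--IR replicates 1, 2 and 3. The mean sum was 1035 ± 18.3 in Lgmn+/+-IR and 1713 ± 202.2 in Lgmn-/--IR mice. The genes thus took 0.103% to 0.108% of all counts of a wildtype library and 0.157% to 0.182% of those of a knockout library.

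The knockout libraries did not keep 1 order across the list. Replicate 3 was the highest of the 3 in 7 genes (Hspa5, Hsp90b1, Calr, Pdia3, Pdia4, Pdia6 and Xbp1), and replicate 2 was the highest in the cofactors Sdf2l1, Creld2 and Manf. Replicate 1 was the lowest in 7 genes, replicate 2 in Calr and Pdia3, and replicate 3 in Manf. Among the wildtype libraries, replicates 2 and 3 were the highest in 5 and 4 genes.

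**Figure D2:**
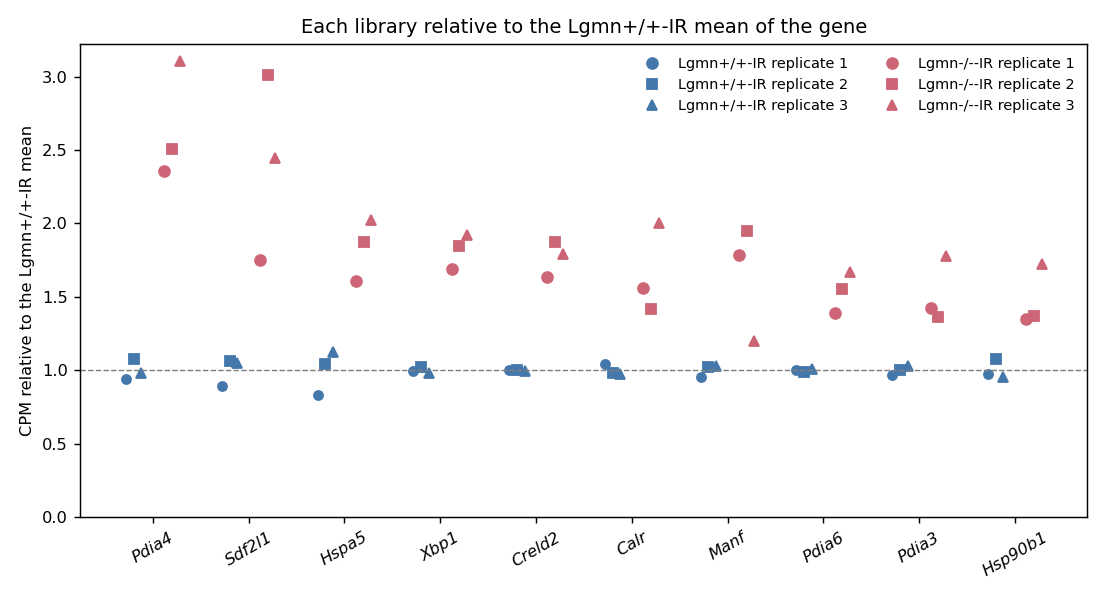
CPM of each library divided by the Lgmn+/+-IR mean of the gene (vertical axis, dashed line at 1), for the 10 genes in order of their log2 fold change. Blue points are Lgmn+/+-IR and red points Lgmn-/--IR libraries, with the marker shape for the replicate, and the red points run from 1.20 (Manf, replicate 3) to 3.11 (Pdia4, replicate 3).

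Levels of different genes were compared in FPKM. In Lgmn+/+-IR mice Calr was the highest at a mean of 128.3 FPKM, followed by Hsp90b1 at 63.1, Pdia3 at 57.3, Hspa5 at 42.5, Pdia6 at 38.8, Xbp1 at 31.4, Manf at 29.5, Pdia4 at 10.5, Sdf2l1 at 9.56 and Creld2 at 9.32. The ranges across libraries of Hspa5 and Pdia6, of Xbp1 and Manf, of Pdia4 and Sdf2l1, and of Sdf2l1 and Creld2 overlapped. Within each Lgmn+/+-IR library Pdia4 was nevertheless above Sdf2l1, while the order in the other overlapping pairs changed between libraries.

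The means of the 10 genes stood in the same order in Lgmn-/--IR mice, from 205.4 FPKM for Calr to 16.0 for Creld2. There, the libraries of Calr and Hsp90b1 and those of Hspa5 and Pdia6 were apart, at 205.4 against 90.3 and at 73.6 against 58.1 FPKM. The ranges of all other neighbors overlapped. Within each Lgmn-/--IR library Hsp90b1 was still above Pdia3, Pdia6 above Xbp1, Xbp1 above Manf and Sdf2l1 above Creld2. Pdia4 moved from 10.5 to 27.0 FPKM and Sdf2l1 from 9.56 to 22.4, and both remained below Manf, at 41.7 FPKM.

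Relatives that are not on the list were set beside its members. Calnexin (Canx), the membrane-bound counterpart of calreticulin, had 260.8 ± 11.1 CPM in Lgmn+/+-IR, against 272.2 ± 6.06 in Lgmn-/--IR mice, a log2 fold change of 0.06 ± 0.08 (SE, adjusted p = 0.716). P4hb, the founding disulfide isomerase, had 103.4 ± 6.20 and 105.9 ± 5.67 CPM and a log2 fold change of 0.03 ± 0.09 (SE, adjusted p = 0.866). In both the libraries of the genotypes overlapped. P4hb was the only relative set beside Pdia3, Pdia4 and Pdia6. Some other genes of disulfide bond formation lay higher, with 0.60 ± 0.30 for Txndc5, 0.52 ± 0.22 for Pdia5 and 0.46 ± 0.10 for Txndc12 (SE). Their adjusted p values by edgeR were 0.335, 0.265 and 0.0628. Of 14 tested genes of that role, 8 had a positive log2 fold change.

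Sdf2, the relative of Sdf2l1, had a log2 fold change of 0.09 ± 0.09 (SE), and Creld1, the relative of Creld2, one of 0.02 with a standard error of 0.09. Cdnf, the relative of Manf, had 1.83, 0.09 and 1.93 CPM in Lgmn+/+-IR mice and 0.92, 1.25 and 0.84 CPM in Lgmn-/--IR mice. Lgmn+/+-IR replicate 2 held 4 counts of it. The log2 fold change of Cdnf was −0.36 ± 0.79 (SE), so that its direction is not known. Hspa13, another Hsp70 of the ER, had 0.06 with a standard error of 0.15, and Hsp90ab1, the cytosolic Hsp90, had 0.31 with a standard error of 0.10. None of these 7 relatives was called by edgeR, with adjusted p values of 0.169 for Hsp90ab1 and 0.659 to 0.922 for the other 6. The direction of P4hb and Creld1 turned under other scalings. The difference between a member and its relative was not tested.

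**Figure D3:**
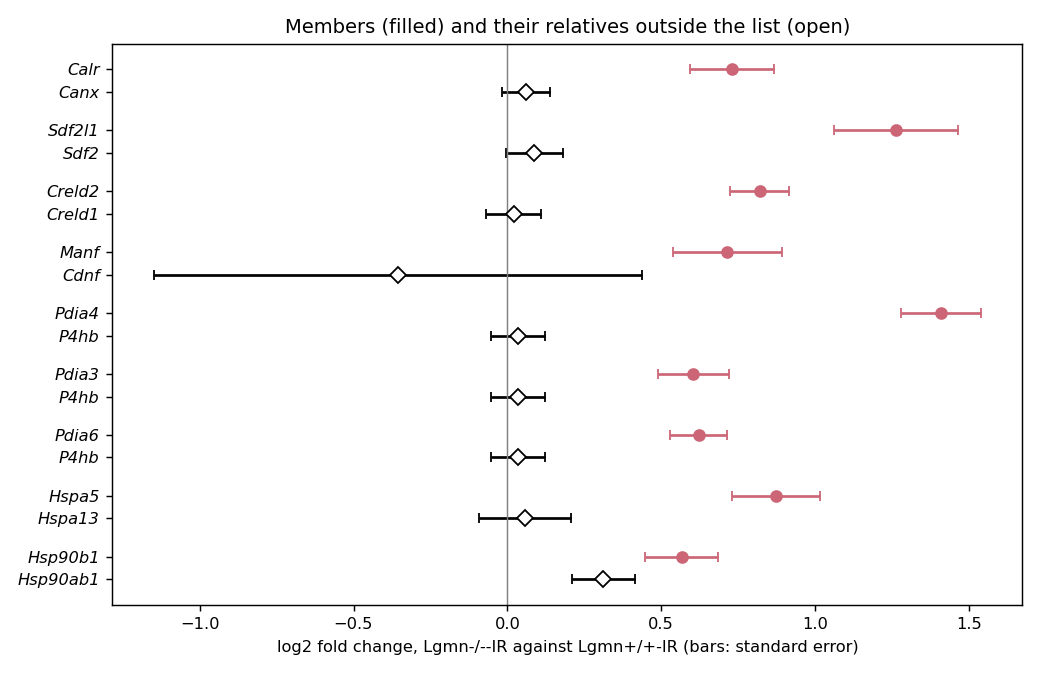
Log2 fold change of Lgmn-/--IR against Lgmn+/+-IR mice (horizontal axis, bars for the standard error) of 9 list members (filled) and, under each, a relative outside the list (open), with P4hb shown under 3 isomerases. The members lie between 0.57 and 1.41, and the relatives between −0.36 (Cdnf, with a standard error of 0.79) and 0.31 (Hsp90ab1).

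A wider list of 135 other genes of the pathway was examined by role, and 134 of them were tested, Pdia2 being too low. By edgeR, 1 gene was called higher in Lgmn-/--IR mice and 1 lower, or 2 of 134, beside 3.33% of all genes tested in either direction and 1.68% in the lower direction. DESeq2 called 8 of the wider genes, beside 7.76% of all genes it tested. The median log2 fold change was 0.06, and 82 of the 134 genes had a positive value. The genotypes did not overlap in 25 genes with Lgmn-/--IR higher and in 8 with Lgmn-/--IR lower, beside 12.4% and 13.3% of all genes tested. Counts at an unadjusted p under 0.05 are given below without a share over all genes, so nothing is read from them.

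The stress sensors and their processing enzymes gave 0 calls among 6 genes with edgeR, and 0 with DESeq2, with 2 genes at an unadjusted p under 0.05. Ern1, which encodes IRE1, had 8.95 ± 0.76 CPM in Lgmn+/+-IR, against 9.12 ± 0.15 in Lgmn-/--IR mice. Eif2ak3, which encodes PERK, had 29.9 ± 1.02 and 32.7 ± 2.20 CPM, and Atf6 had 93.4 ± 1.56 and 86.2 ± 11.0 CPM. The libraries of the genotypes overlapped in each of these 3 genes, with log2 fold changes of 0.03, 0.13 and −0.12 (standard errors 0.12, 0.09 and 0.11). The direction of Ern1 turned when counts were scaled by library size only. The mRNA level does not show the activity of a sensor.

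Of 32 other ER chaperones and co-chaperones, edgeR called 0, DESeq2 called Dnajc3, and 5 had an unadjusted p under 0.05. Hyou1, which encodes the nucleotide exchange factor of BiP, had 54.9, 55.8 and 65.3 CPM in Lgmn+/+-IR mice and 70.4, 72.4 and 85.8 CPM in Lgmn-/--IR mice, without overlap. The log2 fold change was 0.38 ± 0.12 (SE, adjusted p = 0.155). Dnajc3, an inhibitor of PERK and co-chaperone of BiP, had 39.6, 45.5 and 44.9 CPM in Lgmn+/+-IR mice and 52.0, 61.3 and 58.4 CPM in Lgmn-/--IR mice, with a log2 fold change of 0.40 ± 0.11 (SE, adjusted p = 0.102 with edgeR and 0.0259 with DESeq2). Dnajb11, which encodes ERdj3, had a log2 fold change of 0.34 ± 0.10 (SE, adjusted p = 0.145), again without overlap of the genotypes. Dnajb9, a target of spliced XBP1, overlapped, at 39.0 ± 2.53 and 44.4 ± 5.83 CPM.

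Of 14 tested genes of disulfide bond formation, edgeR called Ero1lb, DESeq2 called Txndc12 and Ero1lb, and 3 had an unadjusted p under 0.05. Ero1lb encodes an oxidase of the isomerases that is prominent in secretory cells. It had 20.8, 20.0 and 18.1 CPM in Lgmn+/+-IR mice and 11.0, 10.1 and 11.5 CPM in Lgmn-/--IR mice. It was lower in Lgmn-/--IR mice without overlap, by a log2 fold change of −0.86 ± 0.11 (SE, adjusted p = 0.00984). The call was lost without Lgmn+/+-IR replicate 2 (adjusted p = 0.0638) and in limma on log2(FPKM + 1), where the log2 fold change was −0.35. Ero1l, the other ER oxidase, overlapped, at 32.7 ± 2.01 and 37.7 ± 4.14 CPM; it was named after its values were seen.

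Of 30 genes of translocation, glycosylation and vesicle transport, edgeR called Sec24d, DESeq2 called Ssr2, Srprb, Stt3b and Sec24d, and 8 had an unadjusted p under 0.05. Sec24d encodes a cargo adaptor of the vesicles that leave the ER. It had 7.40, 7.91 and 9.03 CPM in Lgmn+/+-IR mice and 14.2, 14.5 and 14.5 CPM in Lgmn-/--IR mice, without overlap. Sec24d was higher in Lgmn-/--IR mice by a log2 fold change of 0.82 ± 0.12 (SE, adjusted p = 0.0146). The call was lost without Lgmn+/+-IR replicate 1 or 2 or Lgmn-/--IR replicate 3, with adjusted p values of 0.0510 to 0.0868, and in limma on log2(FPKM + 1) with 0.0549.

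Of 24 genes of ER-associated degradation, edgeR and DESeq2 called 0, and 2 had an unadjusted p under 0.05. Herpud1, a membrane component of the degradation complex, had 51.3, 53.7 and 58.2 CPM in Lgmn+/+-IR mice and 62.5, 72.1 and 77.2 CPM in Lgmn-/--IR mice, without overlap, and a log2 fold change of 0.38 ± 0.11 (SE, adjusted p = 0.131). Sel1l, the scaffold of the same complex, had 130.4 ± 38.6 and 138.9 ± 33.8 CPM with wide overlap, and its direction turned when 1 library was left out. Of 28 genes of the PERK and ATF4 branch, edgeR called 0, DESeq2 called Slc7a11, and 5 had an unadjusted p under 0.05. This was the only role with a median below 0, at −0.05, and 13 of its 28 genes had a positive value. Atf4 had 140.3 ± 15.2 and 155.7 ± 9.48 CPM with overlap. Ddit3, which encodes CHOP, had 31.3 ± 2.26 and 38.6 ± 3.13 CPM without overlap, with a log2 fold change of 0.30 ± 0.10 (SE, adjusted p = 0.189).

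**Figure D4:**
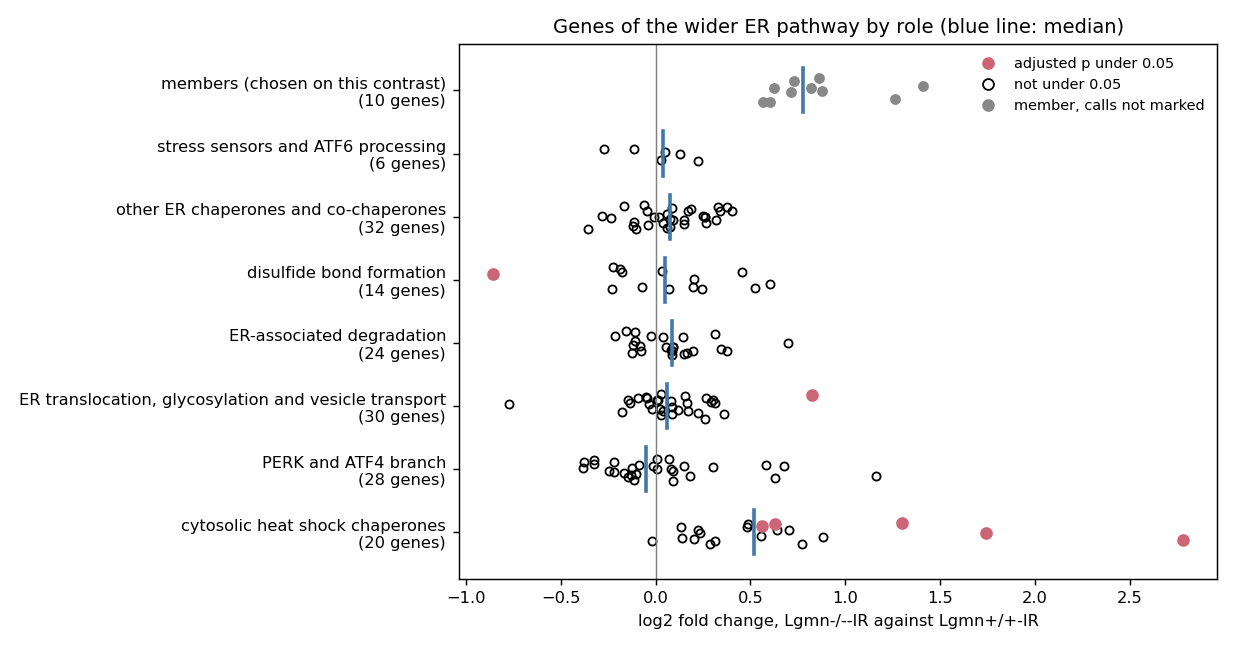
Log2 fold change of Lgmn-/--IR against Lgmn+/+-IR mice (horizontal axis) of each tested gene, by role, with a blue line for the median and red points for genes with an adjusted p under 0.05. The 10 chosen genes (grey, median 0.78, calls not marked) lie above the medians of the wider roles, which run from −0.05 to 0.08, and the cytosolic heat shock chaperones have a median of 0.52.

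ERSE was also held by promoters of genes outside the list. Among the wider genes, 105 had a promoter window, and 5 held ERSE, namely Dnajc3, Canx, Calr4, Syvn1 and Derl3. All 5 have the same arms as Hspa5. The log2 fold changes were 0.70 ± 0.29 for Derl3, 0.35 ± 0.31 for Syvn1 and −0.24 ± 0.36 for Calr4 (SE). Derl3 and Calr4 had at most 62 and 18 counts in a library. The elements of Canx and of Dnajc3, with log2 fold changes of 0.06 and 0.40, are shown as examples, with the arms in capitals.
Canx, chr11:50325790-50325828, - strand: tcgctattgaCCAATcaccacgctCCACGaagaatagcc
Dnajc3, chr14:118937817-118937855, + strand: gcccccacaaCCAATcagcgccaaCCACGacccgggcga
Of 16 tested genes outside the list with ERSE, edgeR called 0 and DESeq2 called 3, beside 3.33% and 7.76% of all genes tested. An unadjusted p under 0.05 was found in 5, and the median log2 fold change of the 16 was 0.15. Of 9 tested genes outside the list with ERSE-II, edgeR and DESeq2 called 0, and 3 had an unadjusted p under 0.05. Among the wider genes ERSE-II was held by Dnajb11 and Herpud1, which are shown with ATTGG and CCACG in capitals because the genotypes did not overlap in either gene.
Herpud1, chr8:94386367-94386397, + strand: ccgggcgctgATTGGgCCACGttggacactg
Dnajb11, chr16:22857842-22857872, + strand: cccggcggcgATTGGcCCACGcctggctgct
UPRE was held by 6 of the 105 wider genes, and the window of Sec24d is shown, with the element in capitals, because the gene was called.
Sec24d, chr3:123267460-123267487, + strand: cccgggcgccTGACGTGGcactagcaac
Of 129 tested genes outside the list with UPRE, 1 was called higher and 4 lower by edgeR, beside 3.33% of all genes tested, and DESeq2 called 12, beside 7.76%. A match of letters does not show binding.

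The heat shock chaperones labelled cytosolic here, which answer to HSF1 rather than to ATF6 or XBP1, were examined as a list from outside the ER. The list also holds Hspd1 and Hspe1, which encode mitochondrial chaperones. Of 20 genes, 5 were called higher and 0 lower by edgeR, beside 1.65% of all genes tested, with a median log2 fold change of 0.52. The genotypes did not overlap in 17 of the 20, each with Lgmn-/--IR higher, beside 12.4% of all genes tested. This list, too, was chosen with earlier results of these data known, so nothing is read from these counts. Hspa1a had 12.3, 13.9 and 13.3 CPM in Lgmn+/+-IR mice and 25.7, 59.8 and 46.7 CPM in Lgmn-/--IR mice, with a log2 fold change of 1.74 ± 0.29 (SE, adjusted p = 0.0231). Hspa1b, a near-identical neighbor with which Hspa1a could share reads, had 46.0, 92.9 and 85.5 CPM in Lgmn-/--IR mice and 10.1 to 11.7 in Lgmn+/+-IR mice. In both genes replicate 1 was the lowest and replicate 2 the highest knockout library, the order also seen in Sdf2l1 and Creld2. Without any 1 of the Lgmn+/+-IR libraries or without Lgmn-/--IR replicate 3, 1 of the 20 genes was called, beside 223 to 308 of all genes. The summed level of the list was 4536 to 5084 CPM in Lgmn+/+-IR, against 5872 to 6950 in Lgmn-/--IR mice.

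Calr and Pdia3 also belong to the class I peptide-loading list of 9 genes, of which they were the only 2 called by edgeR. Nothing is read from this count, since this contrast chose them. DESeq2 called B2m as well, or 3 of 9, beside 7.76% of all genes it tested. Log2 fold changes of the list ran from −0.15 to 1.05 with a median of 0.16, and 6 of 9 were positive. The largest was not that of Calr or Pdia3. Tapbp encodes tapasin, the partner of ERp57 in the peptide-loading complex. It had 28.9 ± 1.46 CPM in Lgmn+/+-IR, against 33.1 ± 1.00 in Lgmn-/--IR mice, without overlap. Its log2 fold change was 0.20 ± 0.09 (SE, adjusted p = 0.286).

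Levels of other cell types differed between the same libraries. The libraries held cortical excitatory neuron markers at a summed level of 3863 to 4678 CPM in Lgmn+/+-IR, against 4130 to 5413 in Lgmn-/--IR mice, with 0 of 6 called by edgeR and by DESeq2 and none at an unadjusted p under 0.05. Oligodendrocyte markers were lower in Lgmn-/--IR mice, at 2242 to 2406 CPM against 3400 to 4122, with 5 of 6 called by edgeR, beside 1.68% of all genes tested. Erythroid markers were higher, at 233.5 to 2271 CPM against 7.59 to 15.8, with 5 of 5 called, beside 1.65% of all genes tested. Limma-voom called 5 oligodendrocyte and 3 erythroid markers. With the replicate number as a block, 2 and 0 of them were called. Replicate 3 had the lowest erythroid sum of the knockout libraries. It was the highest of them in 7 of the 10 genes and the lowest in Manf, and a link with the erythroid sum was not tested. Without Lgmn+/+-IR replicates 1, 2 and 3 in turn, 1, 1 and 4 oligodendrocyte markers and 2, 0 and 1 erythroid markers were called. Without Lgmn-/--IR replicates 1, 2 and 3 in turn, the numbers were 2, 4 and 1 and 5, 4 and 5.

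Plasma cells, whose secretory load goes with high ER chaperone levels, were looked for with 6 markers of plasma and B cells. The sum was 11.1 to 20.1 CPM in Lgmn+/+-IR, against 37.8 to 53.5 in Lgmn-/--IR mice, and 1 of the 6, Ighm, was called. Iglc2 was at 0 in all libraries, and Mzb1, a plasma cell chaperone, was at most 0.154 CPM. The call of Ighm was lost without Lgmn+/+-IR replicate 2 or 3 or Lgmn-/--IR replicate 2 or 3. Meningeal fibroblast markers summed to 79.5 to 91.6 CPM in Lgmn+/+-IR, against 105.4 to 129.3 in Lgmn-/--IR mice, with Slc6a13 called of 6, a call that was lost when any 1 library was left out. Microglia markers summed to 178.9 to 203.9 and 149.9 to 164.7 CPM, with 0 of 6 called by edgeR, Csf1r called by DESeq2 and 2 at an unadjusted p under 0.05. Leukocyte markers summed to 7.87 to 13.5 and 2.05 to 4.14 CPM. Of the 6, only Ptprc and Ly6c2 were high enough to be tested. Ly6c2 was called lower, at a log2 fold change of −3.31, and Ptprc had 0.31 and was not called. Cd3e was at 0. The part of these cells in the difference of the 10 genes was not tested.

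Astrocyte markers overlapped in their sum, at 3135 to 3429 CPM in Lgmn+/+-IR, against 3097 to 3560 in Lgmn-/--IR mice, but 4 of the 6 were higher in Lgmn-/--IR mice without overlap (Aqp4, Gfap, Slc1a3 and Gja1), and the median log2 fold change was 0.30. Of these, edgeR called Aqp4 (0.55 ± 0.10 (SE), adjusted p = 0.0374), a call kept without Lgmn-/--IR replicate 2 and lost without each other library, and DESeq2 called Aqp4 and Gja1. The part of astrocytes in the difference of the 10 genes was not tested. Markers of interneurons, oligodendrocyte precursors, endothelial cells, pericytes and choroid plexus overlapped between the genotypes in their sums. Striatal neuron markers stood at 1456 CPM in Lgmn+/+-IR replicate 3 and 1363 CPM in Lgmn-/--IR replicate 1, against 283.7 to 891.6 CPM in the other 4 libraries. With these 2 libraries left out, an alternative chosen after the data were seen, 136 of 18480 genes (0.736%), 2 of the 10 genes and 0 of the wider genes were called by edgeR. The log2 fold changes of the 10 genes were then 0.60 to 1.49, none of them moved by more than the spread between replicates. Mitochondrially encoded genes summed to 48520 CPM in Lgmn-/--IR replicate 2 and to 74250 to 93520 CPM in the other 5 libraries. Of 14 clock genes, edgeR called 2, Arntl and Dbp, beside 3.33% of all genes tested. DESeq2 called Per2 as well, or 3 of 14, beside 7.76%. With the replicate number as a block 0 were called. The median log2 fold change of the 14 was 0.04, 8 were positive, and their sums overlapped between the genotypes. Arntl and Dbp differed in opposite directions, with log2 fold changes of 0.75 and −0.67 (adjusted p = 0.0267 and 0.0115 by edgeR). With 1 library left out, these adjusted p values rose to at most 0.120 and 0.0619, both calls being lost without Lgmn+/+-IR replicate 2 or 3, and that of Arntl also without any other library but Lgmn-/--IR replicate 1. The hour of collection is not given in the sources used here, and its part in the difference of the 10 genes was not tested.

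**Figure D5:**
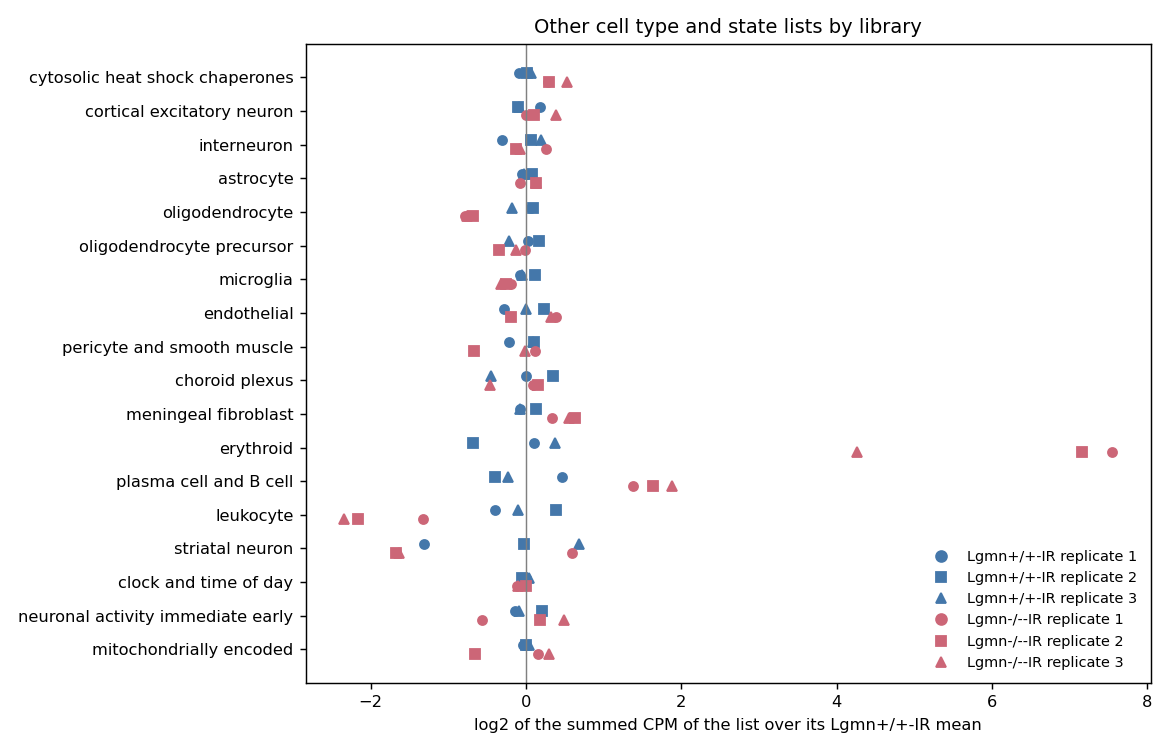
Summed CPM of lists of cell type markers, state genes and cytosolic heat shock chaperones, as log2 over the Lgmn+/+-IR mean of the list (horizontal axis). The 3 Lgmn+/+-IR libraries are blue and the 3 Lgmn-/--IR libraries red, with the marker shape for the replicate. A list of glucocorticoid-responsive genes was not drawn. The sums of the genotypes lie apart for cytosolic heat shock chaperones, oligodendrocytes, microglia, meningeal fibroblasts, erythroid cells, plasma and B cells and leukocytes. They overlap for the other lists drawn, and the 2 leukocyte markers that were tested went in opposite directions.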

How the data were processed

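Reads were filtered by the authors with Trimmomatic 0.36, mapped with HISAT2 (GRCm38) and summarized with StringTie. The deposited counts are raw reads per gene, without normalization, and the deposited FPKM are scaled by the authors for transcript length and library size. The read counter and its strand setting are not given in the sources used here. Gene positions came from GENCODE M21, which held 51633 of the 51826 gene IDs, and promoter windows from RefSeq.

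Counts were analysed in R 4.3.3 with edgeR 4.0.16 (TMM scaling, low genes removed with filterByExpr, quasi-likelihood F-test on genotype alone, p-values adjusted over 18345 genes by Benjamini-Hochberg). A gene was called at an adjusted p under 0.05. The study's methods name limma without its input, so limma 3.58.1 (on voom weights and on log2(FPKM + pseudocount), pseudocounts 1 and 0.1) and DESeq2 1.42.0 were alternatives, with other scalings, filters, the replicate number as a block and each library left out. The tests were checked on simulated data. CPM are TMM-normalized and given as mean ± SD. Depth limits a gene at 3 counts or fewer in a library.

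The 10 genes and all lists were chosen with earlier results of these data known. Named are the 10 genes, a fixed set of 20 genes whatever their values, the wider genes called with the smallest adjusted p (at most 3 per role and direction). The relatives Hspa13 and Hsp90ab1, the genes Txndc5 and Pdia5, marker genes and overlapping genes were named after their values were seen. So were genes called by another tool or holding an element. Genotypes came from the labels. The p-values set the difference between the genotypes against the spread between these samples. Protein sequences were not used here.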

Additional observations from a re-analysis of the deposited data

How the results depend on the processing

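Of 170 fold changes of the 10 genes under 17 alternatives, 166 moved by less than the spread between replicates and none turned. The other 4 were in limma on FPKM: 0.72 for Creld2, 0.45 for Manf and 0.77 for Xbp1 with a pseudocount of 1, and 0.79 for Xbp1 with a pseudocount of 0.1. Those of Pdia4 were 1.28 to 1.49 and those of Manf 0.45 to 0.90. The contrast chose the 10 genes, so neither these values nor counts of calls on them show stability. The number of all genes called, 611, became 1423 with DESeq2, 404 without a filter, 406 with at least 10 counts in every library, and 223 to 500 with 1 library left out. Of the 10 genes, 8 were called, 10 with DESeq2, 9 in either limma fit on FPKM and by library size only, and 3 to 7 with 1 library left out. Of the wider genes, 2 were called, 8 with DESeq2, 0 in either limma fit on FPKM, and 0 to 4 with 1 library left out. Without the 2 libraries high in striatal markers, chosen after the data were seen, 136 genes, 2 of the 10 and 0 of the wider genes were called.

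With the replicate number as a block, 150 genes, 4 of the 10 (Hspa5, Pdia4, Sdf2l1 and Xbp1) and 0 of the wider genes were called. The deviations of same-numbered libraries from their genotype means correlated at −0.252, −0.0464 and −0.0276 (mean −0.109). No label pairs libraries across genotypes, so the main fit did not use the number. Whether a number marks a shared litter or preparation is not given in the sources used here.

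Of 351 fold changes of the other named genes, 315 kept direction and call, 21 lost a call, 1 gained one (Dnajc3 with DESeq2) and 14 turned, all of them in genes that were not called. P4hb had −0.0088 and −0.0091 in limma on FPKM and −0.0005 when scaled by library size only. Creld1 had −0.0026 with upper-quartile scaling, −0.0141 by library size only, and −0.0009 and −0.0248 without Lgmn+/+-IR replicate 3 or Lgmn-/--IR replicate 2. Ern1 had −0.0089 by library size only and −0.0406 without Lgmn+/+-IR replicate 3. Cdnf, at 0.09 to 1.93 CPM in a library, had 0.4588 with limma-voom, 0.0446 with the block and 0.0672 without Lgmn+/+-IR replicate 3. Sel1l had −0.1296 and −0.0294 without Lgmn+/+-IR replicate 2 or Lgmn-/--IR replicate 1. With 1 library left out, the values ran from −0.0406 to 0.0676 for Ern1, −0.1296 to 0.2823 for Sel1l, −0.9025 to 0.0672 for Cdnf and −0.0248 to 0.0684 for Creld1. The cause of these changes was not tested.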
